A study of Mus musculus with 4 samples.

Results

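Tektins and other microtubule inner proteins were compared in retinas of mouse embryos with and without an intact Foxn3 gene. The genes were Tekt1, Tekt2, Tekt3, Tekt4, Efhc2, Enkur, Mns1 and Pierce1, chosen by symbol as 8 genes whose proteins lie inside the doublet microtubules of the axoneme. The deposited table lists 6 of these 8 among 18471 genes. Tekt3 and Tekt4 are not listed and were not analysed here. All 6 listed genes passed the filter on low counts and were among the 17300 genes tested.

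RNA was measured by sequencing in 4 retinal libraries from embryonic day 19, each made from 500 ng of total RNA of a genotyped embryo. The wild-type group had 2 libraries. The group labelled Foxn3KO (genotype Foxn3-/-, allele C57BL/6NJ-Foxn3em1(IMPC)Bay) also had 2 libraries, from embryos in which exon 3 of Foxn3, which encodes a forkhead transcription factor, is deleted. The labels name no tissue restriction of the deletion and no further allele or treatment in either group. Each group therefore rests on 2 embryos, and fewer cells of a type cannot be told apart from less RNA per cell in whole retina.

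Axonemal doublet microtubules are the paired tubules that run along cilia and flagella. Microtubule inner proteins bind the inner wall of these tubules, and tektins form filaments there, near the seam where the tubules of a pair join. This lining is best known from motile cilia and sperm tails, where it steadies the doublets against the force of beating. Retinal progenitors carry a primary cilium, and photoreceptors build their light-sensing outer segment on a modified one; neither beats. Ciliary genes of the motile kind are commonly switched on by the forkhead factor Foxj1 together with Rfx factors, which bind the X-box motif.

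Because the listed genes differed in how far they moved, the sequences in front of Enkur and Tekt1, which moved strongly, are shown with those of Tekt2 and Mns1, which moved less. Each line gives the 250 bases before a transcription start, 5′ to 3′ on the gene's strand, from RefSeq on GRCm38.p6. The Enkur window is chr2:21205366-21205615 (minus strand), the Tekt1 window chr11:72361883-72362132 (minus strand), the Tekt2 window chr4:126325689-126325938 (minus strand) and the Mns1 window chr9:72438279-72438528 (plus strand). Capitals mark matches to GACGC, the forkhead-like motif that Foxn3 and its relatives are known to bind, and to GTTGCC, the arm that the X-box repeats in inverted form, each on either strand (GCGTC and GGCAAC on the opposite one). Only windows with such a match are shown. The 250 bases before the start held none for Pierce1, which moved most, or for Efhc2. Another window of Tekt1 and another of Tekt2 also held none.
Enkur: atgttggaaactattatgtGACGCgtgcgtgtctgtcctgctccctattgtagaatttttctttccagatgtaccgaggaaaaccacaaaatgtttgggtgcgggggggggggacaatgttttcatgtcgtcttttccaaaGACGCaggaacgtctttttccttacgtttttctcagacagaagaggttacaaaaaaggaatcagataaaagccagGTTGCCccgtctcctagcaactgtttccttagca
Tekt1: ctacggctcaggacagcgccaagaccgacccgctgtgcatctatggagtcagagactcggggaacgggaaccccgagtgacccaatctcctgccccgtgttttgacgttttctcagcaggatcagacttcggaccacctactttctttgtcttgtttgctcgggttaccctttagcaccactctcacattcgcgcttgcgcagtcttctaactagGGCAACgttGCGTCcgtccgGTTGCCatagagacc
Tekt2: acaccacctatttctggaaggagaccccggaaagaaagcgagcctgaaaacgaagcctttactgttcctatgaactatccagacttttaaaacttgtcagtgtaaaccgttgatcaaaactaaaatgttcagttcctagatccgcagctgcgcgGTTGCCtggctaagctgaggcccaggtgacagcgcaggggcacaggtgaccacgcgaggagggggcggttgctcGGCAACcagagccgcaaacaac
Mns1: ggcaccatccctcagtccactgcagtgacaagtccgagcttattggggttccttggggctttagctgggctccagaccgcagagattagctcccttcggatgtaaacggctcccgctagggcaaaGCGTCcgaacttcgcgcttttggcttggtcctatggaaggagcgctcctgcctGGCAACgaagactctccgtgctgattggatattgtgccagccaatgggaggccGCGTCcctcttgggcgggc

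Motifs were searched on both strands in windows that run from 250 bases before to 50 after each start, with the start base counted as 0. GACGC was found for 4 of the 6 listed genes, against 29.6% of the 27025 genes in the promoter table. Enkur holds it at -231 and -109, Mns1 at -125 and -19, and Tekt1 at -26 in 1 of its 2 windows. Pierce1, which the promoter table holds under an older symbol and which was matched by its gene identifier, has a match that begins at -3 and runs across the start. Tekt2, with 3 windows, and Efhc2, with 1, had no GACGC. The X-box was searched as GTNNCC followed by any 3 bases and GNAAC. It was found in 2.17% of the 32851 windows and for 2.49% of all genes. Among the listed genes it was found for Enkur, where GTTTCCTTAGCAAC begins at -12 and runs across the start. Only this spacing was searched, so X-boxes of another spacing or a looser form would have been missed in the other genes. The arm GTTGCC on its own was found for Tekt1 (-35 and -15), Tekt2 (-96 and -22 in the window shown), Enkur (-34) and Mns1 (-72 and 15), which is 4 of 6 listed genes against 14.1% of all genes; this motif was added after the sequences had been seen. None of the 6 held the forkhead motif GTAAACA, which 3.65% of windows and 4.05% of all genes hold. GACGC was thus found for Pierce1, Enkur and Tekt1, which changed strongly. Among Tekt2, Efhc2 and Mns1, which changed weakly, it was found for Mns1 only. GTTGCC was found for Enkur and Tekt1 and for Tekt2 and Mns1, but not for Pierce1 or Efhc2. The part of these motifs in the size of the changes was not tested.

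The targeted gene was examined before the members. Foxn3 had 2421 and 2712 counts in the wild-type libraries and 4181 and 3219 in those labelled Foxn3KO, so its gene-level signal was higher in the group labelled as the knockout, with a log2 fold change of 0.54 (SE 0.046). Gene counts do not resolve exon 3. Each direction given here rests on the labels. Total counts ranged from 22543531 to 29360129 per library, and a level of 3 counts corresponded to 0.103 to 0.134 CPM (counts scaled to library size with edgeR's TMM factors), a limit that covers counting error only. The sex pattern was not the same in every library: Xist counts were 83073 for wild-type replicate 1, but 17, 19 and 9 elsewhere. All 16 retinal marker genes were listed, at a summed 4082 to 4250 CPM per library, with Pax6 the most abundant at 844 to 865 CPM; 3 were called higher and 3 lower, beside the 21.9% of all genes tested that were called in either direction.

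All 6 listed genes were higher in the libraries labelled Foxn3KO, and in each of them both of these libraries lay above both wild-type libraries. A gene was called when its Benjamini-Hochberg adjusted p was under 0.05 in edgeR's quasi-likelihood test over all genes tested. All 6 were called higher, where 12.3% of the 17300 genes tested were called higher and 9.66% lower. Under total count scaling the balance over all genes turned, to 1916 higher and 2060 lower, and the 6 members were still called higher. Groups that do not overlap with higher values in the libraries labelled Foxn3KO were found for 29.9% of all genes tested. The median log2 fold change of the 6 was 2.52, beside -0.00470 over all genes tested. Without wild-type replicate 1, the library with the high Xist count, all 6 were also called higher, beside 13.4% of all genes then tested, and their median was 2.47. Their folds fell into a strong set, Pierce1, Enkur and Tekt1, with log2 fold changes from 3.64 to 4.77, and a weak set, Tekt2, Efhc2 and Mns1, from 0.42 to 1.40.

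**Figure D1:**
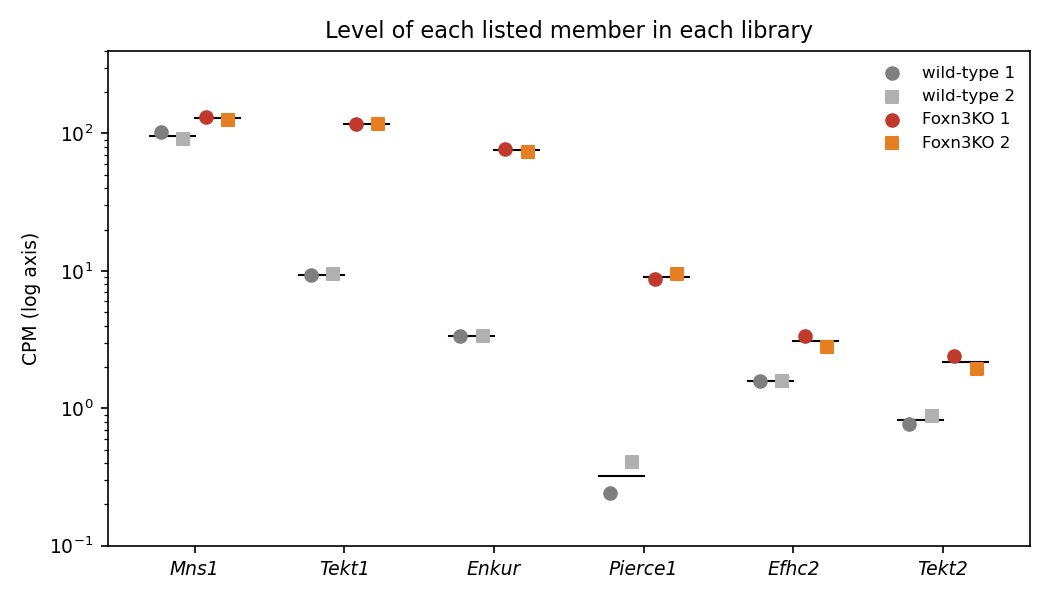
CPM (log axis) of the 6 listed genes in each of the 4 libraries; points are libraries and short black lines are group means of 2 libraries. For each gene both libraries labelled Foxn3KO lie above both wild-type libraries, by most for Pierce1, Enkur and Tekt1 and by least for Mns1.

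The tektins came first. Tekt1, a filament-forming tektin of the doublet wall (ENSMUSG00000020799, chromosome 11), had 232 and 257 counts in the wild-type libraries and 3432 and 2633 in those labelled Foxn3KO. These were 9.36 and 9.46 CPM against 118 in each library labelled Foxn3KO, so replicates were close and the groups far apart. The group means were 9.41 ± 0.0733 and 118 ± 0.206 CPM (SD over 2 libraries), and their ratio was 12.5. On the log2 scale the fold was 3.64 (SE 0.061), with an adjusted p of 1.55e-17 in edgeR's test. Of the genes tested, 0.410% had a larger log2 fold change.

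Tekt2, a tektin long studied in sperm tails (ENSMUSG00000028845, chromosome 4), was present at a far lower level. It had 19 and 24 counts in the wild-type libraries and 70 and 43 in those labelled Foxn3KO, or 0.766 and 0.883 CPM against 2.40 and 1.92 CPM. The groups did not overlap, and the libraries labelled Foxn3KO were less alike than for Tekt1. The log2 fold change was 1.40 (SE 0.30, edgeR adjusted p = 0.00258). Within each wild-type library Tekt1 had 12.2 and 10.7 counts per count of Tekt2, and within each library labelled Foxn3KO 49.0 and 61.2. The ratio thus separated the groups. With 2 libraries against 2, an exact two-sided permutation test of such a ratio cannot go below p = 0.333, so differences in fold between genes are given here as values without a test.

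Tekt5, a further tektin of sperm that is not among the 8 genes, had 27 counts in both wild-type libraries and 37 and 15 in those labelled Foxn3KO. Its values overlapped between the groups, and its log2 fold change was -0.05 (SE 0.37, edgeR adjusted p = 0.946). Of the 3 genes named Tekt in the table, Tekt1 and Tekt2 were called and Tekt5 was not.

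Pierce1 encodes a protein that pierces the microtubule wall and ties the inside of the doublet to the docking of outer dynein arms (ENSMUSG00000026831, chromosome 2). It had 6 and 11 counts in the wild-type libraries and 254 and 212 in those labelled Foxn3KO. These were 0.242 and 0.405 CPM, against 8.72 and 9.47 CPM. The wild-type level was thus only a few times the 3-count limit, and the wild-type libraries differed by 0.74 on the log2 scale. The log2 fold change was 4.77 (SE 0.25, edgeR adjusted p = 9.67e-11). Of the genes tested, 0.145% had a larger one. Without wild-type replicate 1 the value was 4.47, beside 4.49 for Enkur, so the order of these 2 genes depends on that library.

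Pierce2, the related piercer gene from the wider list, started higher and moved less. It had 281 and 275 counts in the wild-type libraries and 814 and 658 in those labelled Foxn3KO, a log2 fold change of 1.42 (SE 0.089, edgeR adjusted p = 1.29e-09). Pierce1 had 0.0214 and 0.0400 counts per count of Pierce2 in the wild-type libraries and 0.312 and 0.322 in those labelled Foxn3KO. Pierce1 therefore remained the less counted of the pair in all 4 libraries.

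Enkur encodes enkurin, first described as an adaptor of calcium channels in sperm and since placed inside the doublet (ENSMUSG00000026679, chromosome 2). Its counts were 83 and 91 in wild-type retina, and 2251 and 1642 in the libraries labelled Foxn3KO. As CPM, both wild-type libraries stood at 3.35 and the others at 77.3 and 73.3. The difference between replicates was small beside that between groups. The log2 fold change was 4.49 (SE 0.079, edgeR adjusted p = 2.77e-17). Thnsl1, whose start lies within 1000 bases of that of Enkur on the opposite strand in GENCODE M21, had 573 and 593 counts against 842 and 644, a log2 fold change of 0.36 (SE 0.074, edgeR adjusted p = 0.00182). The neighbour was called in the same direction with a far smaller fold.

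Mns1 encodes a coiled-coil protein needed for sperm tails and for the beating cilia that set left and right (ENSMUSG00000032221, chromosome 9). It was the most abundant of the 6 in wild-type retina and moved least on the log2 scale. It had 2540 and 2463 counts in the wild-type libraries and 3869 and 2820 in those labelled Foxn3KO, which is 102 and 90.7 CPM against 133 and 126 CPM. The groups did not overlap. The log2 fold change was 0.42 (SE 0.057, edgeR adjusted p = 2.66e-05), and 10.4% of the genes tested had a larger one. In added CPM, however, Mns1 gained 32.9, more than the 8.77 of Pierce1, the 1.49 of Efhc2 and the 1.34 of Tekt2, and less than the 72.0 of Enkur and the 108 of Tekt1.

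Mns1 overlaps Tex9, which lies on the opposite strand in GENCODE M21. The library kit keeps strand, but the use of strand in counting is not given in the sources used here, so reads of the shared stretch may belong to either gene. Tex9 had 1592 and 1689 counts in the wild-type libraries and 2911 and 2213 in those labelled Foxn3KO, a log2 fold change of 0.65 (SE 0.051, edgeR adjusted p = 2.17e-08). The part of Tex9 reads in the Mns1 difference was not tested. Gm36948, a further gene entry that overlaps Mns1 on the same strand, had a log2 fold change of -0.13 (SE 0.13, edgeR adjusted p = 0.502).

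Efhc2 encodes an EF-hand protein of the inner doublet wall and is the X-linked gene of the set (ENSMUSG00000025038). It had 39 and 43 counts in the wild-type libraries and 97 and 63 in those labelled Foxn3KO, or 1.57 and 1.58 CPM against 3.33 and 2.81 CPM. The groups did not overlap, and the log2 fold change was 0.97 (SE 0.23, edgeR adjusted p = 0.00618). This was the least firm call of the 6: without Foxn3KO replicate 1 the log2 fold change was 0.83 and the call was lost (edgeR adjusted p = 0.0726). The wild-type libraries, which differ in Xist, differed by 0.00911 on the log2 scale, and without wild-type replicate 1 the log2 fold change was 0.97 (edgeR adjusted p = 0.00827).

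The genes were ranked against each other on the authors' FPKM, which divides counts by gene length. In wild-type retina the order of levels was Mns1 at 17.9 ± 1.52 FPKM, Tekt1 at 5.78 ± 0.0524, Enkur at 2.14 ± 0.00377, Efhc2 at 0.615 ± 0.00353, Tekt2 at 0.432 ± 0.0440 and Pierce1 at 0.334 ± 0.119 (SD, n = 2 each). Tekt2 and Pierce1 overlapped in this order, and the other neighbours did not. In the libraries labelled Foxn3KO the order was Tekt1 at 72.4 ± 0.120 FPKM, Enkur at 48.1 ± 1.80, Mns1 at 24.1 ± 0.911, Pierce1 at 9.40 ± 0.544, Efhc2 at 1.20 ± 0.143 and Tekt2 at 1.13 ± 0.179 (SD, n = 2 each). There Efhc2 and Tekt2 overlapped.

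The make-up of the set changed with these orders. The summed FPKM of the 6 was 28.1 and 26.3 in the wild-type libraries and 158 and 154 in those labelled Foxn3KO. Mns1 made up 67.5% and 64.1% of this sum in the wild-type libraries and 15.6% and 15.2% in those labelled Foxn3KO. Tekt1 went from 20.4% and 22.1% to 45.8% and 46.8%, and Enkur from 7.58% and 8.13% to 31.2% and 30.3%. Pierce1 went from 0.887% and 1.59% to 5.70% and 6.33%, whereas Tekt2 and Efhc2 made up at most 1.76% and 2.35% in any library. The leading gene of the set was thus Mns1 in wild-type retina and Tekt1 in the libraries labelled Foxn3KO. The lengths behind these values are the authors'.

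**Figure D2:**
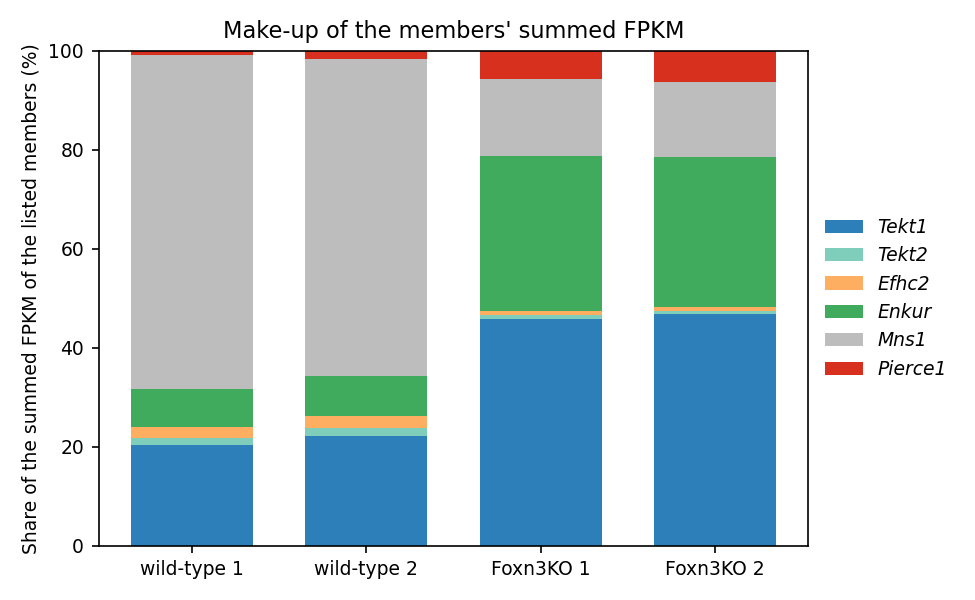
Share (%) of the summed FPKM of the 6 listed genes that each gene made up, 1 bar per library. Mns1 fills 67.5% and 64.1% of the wild-type bars, and Tekt1 with Enkur fills most of the bars labelled Foxn3KO.

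The other genes of the doublet lining were read from a list of 49 further microtubule inner proteins. Of these, 32 were listed and 31 tested. Called higher were 26, none was called lower, and 5 did not pass, beside the 12.3% and 9.66% called over all genes. The median log2 fold change of the 31 was 2.33, beside 2.52 for the 6 members, and the values ranged from -0.23 to 7.84. The groups did not overlap for 28 of the 31, beside 60.4% of all genes tested in either direction. The list was written with earlier results of these data known.

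The 5 genes of that list with the smallest p were Cfap144, Cfap206, Cfap95, Saxo4 and Cfap52. Cfap144 had 70 and 92 counts in the wild-type libraries and 1931 and 1418 in those labelled Foxn3KO, a log2 fold change of 4.38 (SE 0.091). Cfap206, which is also known from the base of radial spokes, had 99 and 128 counts against 2092 and 1765, a log2 fold change of 4.11 (SE 0.087). Cfap95 went from 37 and 32 counts to 1252 and 996, a log2 fold change of 5.03 (SE 0.11). Wild-type means of these 3 were 3.10, 4.35 and 1.33 CPM, near or below that of Enkur for Cfap144 and Cfap95 and above it for Cfap206. Saxo4 went from 8 and 13 counts to 913 and 640, a log2 fold change of 6.20 (SE 0.16). Cfap52, a WD-repeat protein of the inner doublet wall, had 1 and 7 counts in the wild-type libraries and 1116 and 771 in those labelled Foxn3KO, so its log2 fold change of 7.84 (SE 0.21) rests on few wild-type counts. The largest edgeR adjusted p of these 5 genes was 7.98e-15.

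Genes that were already well expressed in wild-type retina were also found in the list, with small rises like that of Mns1. Mdm1 stood at 98.6 ± 2.52 CPM in wild-type retina and 140 ± 3.47 CPM in the libraries labelled Foxn3KO (SD over 2 libraries), with a log2 fold of 0.50 (edgeR adjusted p = 3.29e-07). Cfap20, which is needed for cilia of many kinds, stood at 74.1 ± 1.38 and 92.5 ± 0.413 CPM, with a log2 fold of 0.32 (edgeR adjusted p = 0.000132). Nme7 stood at 30.7 ± 1.36 and 43.7 ± 1.15 CPM, with a log2 fold of 0.51 (edgeR adjusted p = 1.68e-05). The 5 that did not pass were Tekt5, Ribc1, Spmip4, Spmip7 and Spmip8, with log2 fold changes of -0.05, -0.06, -0.23, 0.29 and -0.19. Their wild-type means were at most 3.87 CPM. Ribc1 had 116 and 83 counts against 100 and 89, and its relative Ribc2 had 46 counts in both wild-type libraries against 269 and 195, a log2 fold change of 2.34 (edgeR adjusted p = 1.06e-08).

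**Figure D3:**
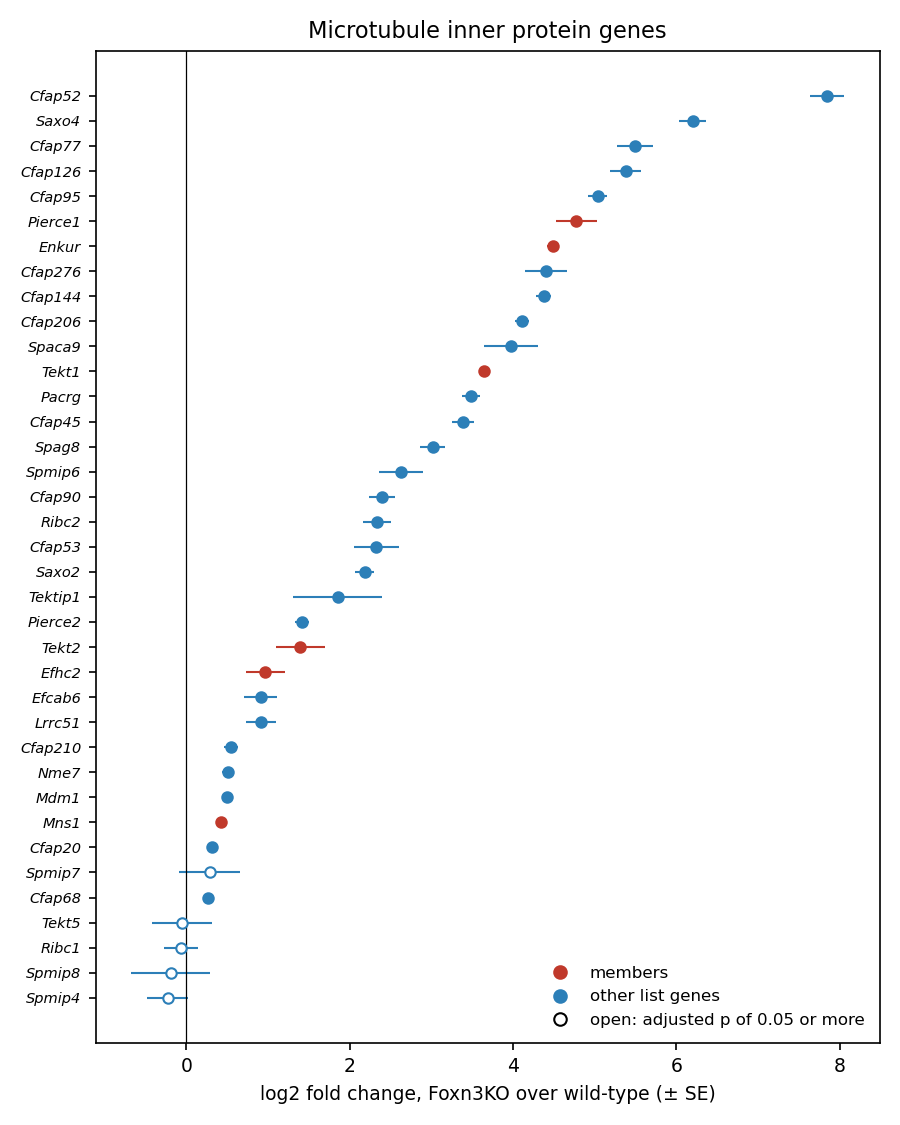
Log2 fold change (libraries labelled Foxn3KO over wild-type, with SE bars) of the 6 members in red and the 31 other tested genes in blue, ordered by value; open symbols did not pass an adjusted p of 0.05. Values run from -0.23 to 7.84, with Pierce1, Enkur and Tekt1 in the upper part and Mns1 near the well-expressed genes Mdm1 and Cfap20.

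**Figure D4:**
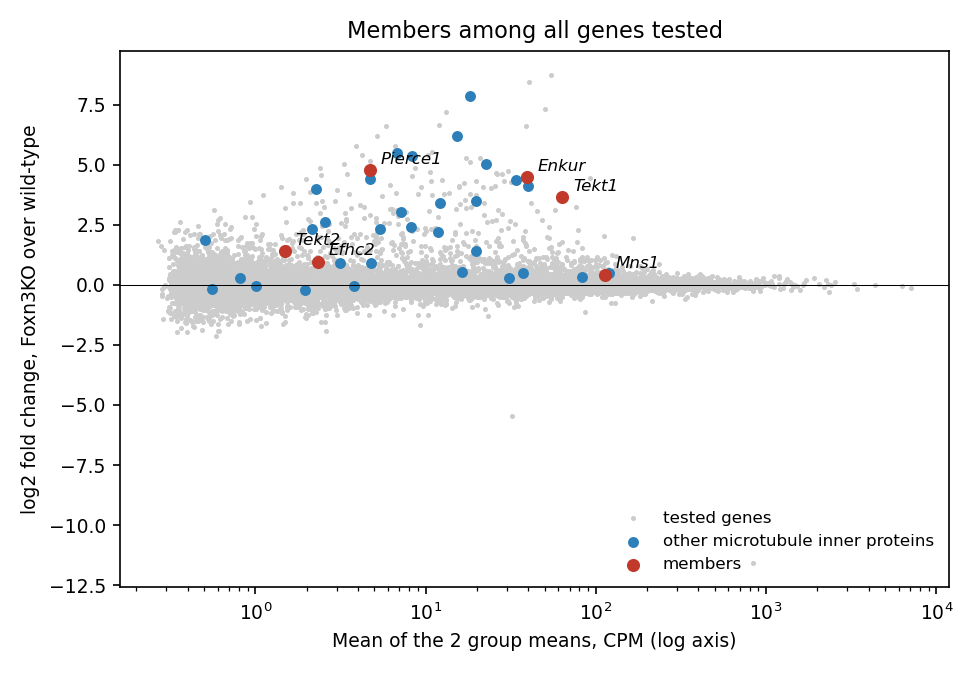
Log2 fold change against mean CPM (log axis) for the 17300 genes tested, with the 6 members in red and the other 31 microtubule inner protein genes in blue. Pierce1, Enkur and Tekt1 lie far above the mass of genes, whose median is -0.00470.

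Genes near the median profile of the 6 were found by the Euclidean distance of their log2 CPM values from it. The values were centred on each gene's mean over the 4 libraries. The nearest 5 outside the set were Ppp1r42 at a distance of 0.0557, Clxn at 0.108, Dlec1 at 0.140, Ccdc96 at 0.142 and Myof at 0.144. Their log2 fold changes were 2.65, 2.51, 2.58, 2.38 and 2.60. Their mean levels in the libraries labelled Foxn3KO ranged from 3.63 CPM for Ppp1r42 to 56.6 CPM for Clxn. Clxn encodes calaxin, a calcium sensor of outer dynein arms. With 4 libraries in 2 groups the distance mostly ranks genes by the size of their fold. The log2 fold changes of these 5 genes lie between the weak members, at most 1.40, and the strong members, at least 3.64. They are near the median of the set and not near any single member.

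Markers of other cell types were read beside the members. Of 12 lens markers 11 were listed and tested. Of these, 10 were called higher and none lower, beside 12.3% and 9.66% of all genes tested. Their summed level was 8.19 and 87.2 CPM in the wild-type libraries and 332 and 334 CPM in those labelled Foxn3KO, with Cryaa the most abundant at 0.323, 28.6, 139 and 136 CPM. Lens markers thus moved with the groups and also differed between the wild-type libraries. Between those same wild-type libraries, replicate 2 minus replicate 1, the members differed on the log2 scale by 0.016 for Tekt1, 0.0010 for Enkur, 0.0091 for Efhc2, 0.21 for Tekt2, 0.74 for Pierce1 and -0.18 for Mns1. Both wild-type libraries had lower lens levels than the libraries labelled Foxn3KO, and the part of lens tissue in the members' differences was not tested.

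Of 8 genes of multiciliated cell fate 6 were listed and 5 tested. Of these, 3 were called higher and none lower, beside 12.3% and 9.66% of all genes tested. Foxj1 had 191 and 226 counts in the wild-type libraries and 5154 and 3914 in those labelled Foxn3KO. Its log2 fold was 4.45 (SE 0.061, edgeR adjusted p = 1.60e-18). Ccno had a log2 fold of 3.14 and Deup1 of 1.73 (edgeR adjusted p = 6.87e-10 and 0.00353). The most abundant, Myb, was at 440 to 457 CPM in all libraries with a log2 fold change of -0.03. Trp73 was not called either (log2 fold change -0.28, edgeR adjusted p = 0.628). Cdc20b, listed but not tested, had 9 and 7 counts in the wild-type libraries and 7 in each library labelled Foxn3KO. Gmnc and Mcidas are not listed. Of 10 choroid plexus markers 7 were listed and 6 tested. The 7 listed summed to 16.5 and 21.4 CPM in the wild-type libraries and 18.2 and 18.5 CPM in those labelled Foxn3KO. The 2 called higher were Folr1 and Aqp1, with log2 fold changes of 1.94 and 1.22. The 2 called lower were Clic6 and Ttr, with -1.53 and -0.83. Beside these stand the 12.3% and 9.66% of all genes tested. Slc4a5, the most abundant, was at 5.29 to 7.62 CPM and was not called. Ependymal markers, 3 of 6 listed, summed to 11.3 and 10.7 against 12.9 and 11.3 CPM with none called, and the most abundant, Vit, was at 8.15 to 11.2 CPM. None of 7 airway markers was listed. Of 9 male germ cell markers Ddx4 alone was listed, at 1.09 to 2.32 CPM and not called. Of 10 pigment epithelium markers 9 were listed and 8 tested. The 9 listed summed to 91.9 and 120 against 74.7 and 76.4 CPM. None was called higher and 4 were called lower, beside 9.66% of all genes tested called lower. Rlbp1, the most abundant, was at 32.2 to 41.7 CPM. The part of these tissues and cells, and of Foxj1, in the members' differences was not tested.

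In the authors' deposited table all 6 members also had an adjusted p under 0.05, where 10.1% of the genes with an adjusted p were called higher. The authors' deposited table gives log2 fold changes of 3.64 for Tekt1, 4.49 for Enkur, 4.73 for Pierce1 and 0.41 for Mns1. For Tekt2 and Efhc2 the authors' deposited table gives clearly smaller values than edgeR did here. These are 1.04 for Tekt2 with a deposited adjusted p of 0.0179 and 0.68 for Efhc2 with a deposited adjusted p of 0.0444. The DESeq2 test run here on the same counts gave both of these adjusted p-values again, with log2 fold changes of 1.39 and 0.97. The deposited calls are thus not a further line of evidence, and the source of the smaller deposited folds was not tested.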

How the data were processed

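Counts of reads per gene were used as deposited by the authors, raw and in whole numbers, from 1 table of the whole series. Also deposited by the authors were FPKM values, a mean normalized signal (not used), log2 fold changes with standard errors, and p-values with adjusted p-values. DESeq2 and build mm39 are named in the submitters' processing notes; aligner, counter, strand setting and handling of molecular identifiers are not given in the sources used here. The smallest sum over libraries is 16 counts.

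After a repeated identifier was dropped (18471 genes left) and filterByExpr applied (17300 left), counts were tested with edgeR 4.0.16 in R 4.3.3 (TMM, quasi-likelihood F test of the edgeR 4 fit, genotype as the only term, two-sided, Benjamini-Hochberg over all genes tested). Each SE is the fold change over the root of F. On simulated data of 17036 genes with 11 false calls, all changes of 2 and of 4 on the log2 scale, 76% of those of 1 and 64% of those of 0.5 were called. Each size of change was held by 49 or 50 genes. Far fewer genes were changed there than were called in the real data, so these shares and false calls may not carry over. Libraries came from individual embryos per the labels, which also give groups and replicate numbers. Replicates differed beyond sampling noise, with a mean chi-square per gene (at least 20 summed counts) of 10.1 within wild-type and 1.89 within Foxn3KO. The wild-type mean includes Xist, at 83073 and 17 counts, which raises it, so it is not the noise of a typical gene.

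The members and lists were chosen with earlier results of these data known. Named by rule were all members, Foxn3, Xist, the 5 other microtubule inner proteins with the smallest p, the 5 nearest profiles (prior count 2) and the most abundant marker of each list. Tekt5, Pierce2, Mdm1, Cfap20, Nme7, Ribc1, Ribc2, Spmip4, Spmip7, Spmip8, Foxj1, Ccno, Deup1, Trp73, Cdc20b, Gmnc, Mcidas, Folr1, Aqp1, Clic6, Ttr, Thnsl1, Tex9 and Gm36948 were named after values had been seen. A gene of the wider list is not reported here and was left out of that list's counts. Alternatives were RLE and total count scaling, no filter, a minimum of 10 counts in each library, the tests of DESeq2 1.42.0 and limma-voom (limma 3.58.1), the earlier edgeR fit, a replicate block and leaving out each library. Promoters are RefSeq's on GRCm38.p6, and neighbours come from GENCODE M21; no protein sequences were used. Figures were drawn with matplotlib 3.10.9.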

Additional observations from a re-analysis of the deposited data

How the results depend on the processing

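With all 4 libraries, the members' log2 fold changes kept their direction and their call in 47 of 47 values under 8 alternatives. Pierce1 has none at a minimum of 10 counts in every library, because wild-type replicate 1 has 6. The largest adjusted p among these alternatives was 0.0179 for Tekt2 and 0.0444 for Efhc2, both in DESeq2. The count of calls was 3795 over the 17300 genes tested, and DESeq2 gave 2437 over the 15248 genes with an adjusted p; the cause was not tested. Replicate numbers show no pairing: across genes, the replicate differences of both groups had a correlation of -0.00825. A replicate block raised the count to 4222, and 3792 of the 3795 genes were among these. Under the block 6 members and 26 of the other microtubule inner proteins were called.

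Leaving out each library in turn used the same test, with the lone library of a group assumed to vary like the other group. The count over all genes then ranged from 2323 to 5067, falling to 2328 without Foxn3KO replicate 1 and to 2323 without Foxn3KO replicate 2. Called members ranged from 5 to 6 and other microtubule inner proteins from 24 to 26. Log2 fold changes ranged from 3.64 to 3.65 for Tekt1, 1.21 to 1.54 for Tekt2, 0.83 to 1.08 for Efhc2, 4.45 to 4.53 for Enkur, 0.34 to 0.52 for Mns1 and 4.47 to 5.20 for Pierce1. Depth limits the members with few counts: Pierce1 and Tekt2 had 6 to 24 counts per wild-type library.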
